A study of Saccharomyces cerevisiae BY4741 with 6 samples.

Results

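Cells that had spent 60 min in galactose were compared with cells growing in glucose, in a strain lacking SPP1 and in the wild type. The comparison takes 4 of the 6 libraries of the series, and all 5186 genes with a mean count of at least 10 were described, of 5219 in the table. The samples were log-phase budding yeast BY4741 whose RNA polymerase II subunit Rpb3 carries a 3xFLAG tag (RPB3-3xFLAG), and the deletion strain also carries spp1::KanMX6. The assay was NET-seq, native elongating transcript sequencing: RNA still bound to the tagged polymerase is purified and sequenced, so a value reflects polymerase on a gene and not the amount of mature mRNA. The groups were spp1 deletion at 60 min, wild type at 60 min, spp1 deletion in glucose and wild type in glucose, with 1 library each. The other libraries, at 15 min in each strain, entered the same fit and gave the earlier time. Per the labels, cultures for galactose were spun down and resuspended in warm galactose medium (YPG), a step not described for glucose cultures (YPD), so that sugar and handling cannot be told apart.

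In budding yeast, glucose represses genes for other sugars, respiration and storage carbohydrate, and it promotes ribosome production. Galactose is imported by Gal2 and converted to glucose-1-phosphate by the Leloir enzymes. Their genes are activated by Gal4, which Gal80 holds inactive until Gal3 binds galactose. Environmental stress genes, driven largely by Msn2 and Msn4, and ribosome genes commonly move in opposite directions when growth conditions change.

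Library totals were 1162190 counts in spp1 deletion and 1459874 in wild type at 60 min, and 4167249 and 2528759 in glucose. A count was worth between 0.245 and 0.82 CPM (a count scaled to the library total times its TMM factor) over the 6 libraries. SPP1 checked the strain labels: it had 0 counts in spp1 deletion and 131 in wild type at 60 min, and 1 and 324 counts in glucose. The count of 0 allows a level of up to 2.46 CPM (3 counts, counting error only). The libraries of a condition resembled each other, with correlations of log2 CPM across genes of 0.963 at 60 min and 0.975 in glucose, and genes are not independent replicates. The correlation between 60 min and glucose was 0.497 in spp1 deletion and 0.534 in wild type. Markers of a cells, the mating type of BY4741, summed to 1593 CPM in spp1 deletion and 2886 CPM in wild type at 60 min, and to 2273 and 3011 CPM in glucose, over 4 of 6 listed genes. The summed level of alpha markers was 26.5 to 45.2 CPM over 3 of 5 genes, and that of meiotic markers 36.7 to 50.3 CPM over 4 of 12 genes, with none at 0 in these 4 libraries. Chromosome XI from MTC2 to its right end holds 154 tested genes whose counts are shifted between strands, and values there are called uncertain.

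At 60 min, 3433 of the 5186 genes (66.2%) were called in edgeR's quasi-likelihood fit with genotype as a block, at a Benjamini-Hochberg adjusted p under 0.05. Of these, 1675 genes rose (32.3%) and 1758 fell (33.9%). Counts in the gene lists below are to be read beside these shares. Changes of at least 2-fold were called for 812 higher genes (15.7%) and 915 lower genes (17.6%), and changes of at least 4-fold for 347 and 329. The strains stand in for replicates, so a p measures the spread between these libraries. The levels are relative to the rest of each library, and a change shared by all genes would not be seen. In a culture, fewer cells transcribing a gene and less RNA per cell cannot be told apart.

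**Figure D1:**
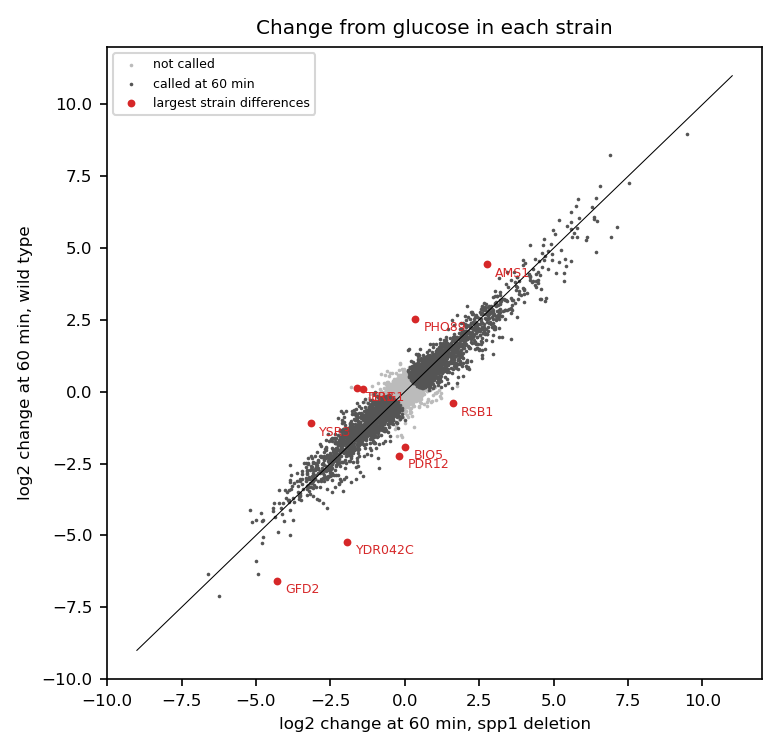
Each point is 1 of 5186 genes, with its log2 change from glucose to 60 min in the spp1 deletion on the x axis and in the wild type on the y axis, as log2 CPM after adding a prior count of 2. Dark points were called in the fit over both strains, the line marks equal change, and red points are the genes with the largest difference between strains by a fixed rule. Most points lie along the line, and the called genes farthest out are AAH1 and HSP12, at -7.27 and 9.44 over both strains.

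Changes measured in each strain alone had the same sign for 3431 of the 3433 called genes and for 88.6% of all genes tested. Pearson's r between the strains' changes was 0.96 and Spearman's rho 0.937 across the 5186 genes, as a description, since genes share libraries. The plot of the change in each strain shows genes spread along 1 diagonal. Against glucose, the SD of the log2 change over genes was 1.39 at 60 min and 1.87 at 15 min. Both times share the glucose libraries, so only the direct contrast between them is tested below.

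Most genes of galactose use rose. Of 5 measured members (the enzymes of the pathway, the phosphoglucomutases and the transporter), 4 rose and 1 fell, with a median log2 change of 2.77 against -0.017 over all genes tested. GAL1, galactokinase, was at 40.2 CPM in spp1 deletion and 49 CPM in wild type at 60 min, against 5.64 and 9.74 CPM in glucose. Both 60 min libraries lay above both glucose libraries, and the change was 2.56 ± 0.29 (log2 with the fit's standard error; edgeR adjusted p = 1.01e-06). GAL7, the uridylyltransferase, was at 55 and 76 CPM at 60 min in spp1 deletion and wild type, against 8.33 and 10.5 CPM in glucose. Its groups did not overlap either, with a change of 2.77 ± 0.24 (edgeR adjusted p = 5.54e-08). GAL2, the galactose permease, was at 41.9 and 25.8 CPM at 60 min, against 2.45 and 1.95 CPM in glucose, in the same order of strains. That gave the widest separation of the 3, at 3.95 ± 0.37 (edgeR adjusted p = 1.32e-07).

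The phosphoglucomutases, which link galactose to glycolysis, moved apart. PGM2, the major form, was at 798 CPM in spp1 deletion and 760 CPM in wild type at 60 min, against 15.7 and 14 CPM in glucose, a change of 5.70 ± 0.24 (edgeR adjusted p = 3.46e-11). PGM1, the minor form, was at 27.9 and 17.4 CPM, against 88 and 89.6 CPM, a change of -1.99 ± 0.21 (edgeR adjusted p = 5.86e-07). The rise in one and the fall in the other were each seen in both strains.

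Of the regulators, GAL3 and GAL4 rose and GAL80 was not called. GAL3, the galactose sensor, was at 87 CPM in spp1 deletion and 108 CPM in wild type at 60 min, against 5.88 and 5.07 CPM in glucose (log2 change 4.10 ± 0.25, edgeR adjusted p = 8.92e-10). GAL4, the activator, was at 72.2 and 67 CPM, against 17.9 and 15.6 CPM (2.04 ± 0.20, edgeR adjusted p = 3.15e-07). GAL80, the inhibitor, was at 100 and 142 CPM, against 90.9 and 120 CPM, and its strains overlapped between conditions (0.20 ± 0.14, edgeR adjusted p = 0.234). Of other genes bound by Gal4, GCY1 (an aldo-keto reductase) rose by 4.09 and MTH1 (a corepressor of hexose transporter genes) by 4.98. PCL10 (a cyclin for Pho85) was not called, at -0.094 (edgeR adjusted p = 0.578). FUR4, the uracil permease, was called lower at -0.63, a call lost with DESeq2 (adjusted p = 0.167) and without the spp1 deletion glucose library, the wild-type glucose library or the spp1 deletion 60 min library. It was also lost with limma, with library totals and without the genotype term.

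The direct contrast of 60 with 15 min called 1891 of 5186 genes (36.5%), 1056 higher at 60 min (20.4%) and 835 lower (16.1%). The number of lower calls was 554 without the wild-type 15 min library, 514 with DESeq2 and 547 with library totals. With library totals in place of TMM factors, 72.4% of the calls in this contrast were higher at 60 min, against 55.8%. GAL1 was higher at 60 than at 15 min by 1.76 (edgeR adjusted p = 3.47e-04), GAL3 by 1.64 (edgeR adjusted p = 3.27e-05) and GAL7 by 0.89 (edgeR adjusted p = 0.00571). GAL2 did not pass, at 0.32 (edgeR adjusted p = 0.399), and PGM2 was lower at 60 than at 15 min by -1.65 (edgeR adjusted p = 7.26e-06). The members of the pathway had different courses between the times, as the plot of galactose and hexose genes shows.

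**Figure D2:**
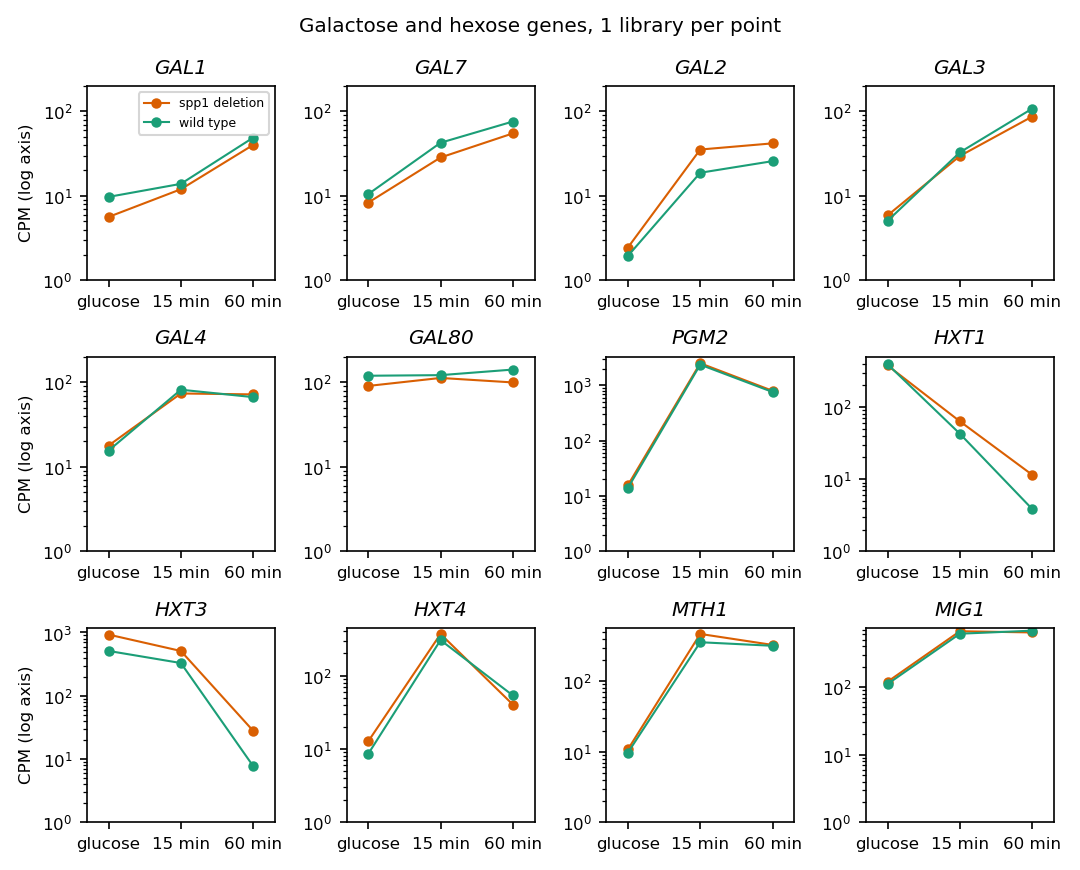
CPM on a log axis for 12 genes of galactose and hexose use in glucose and after 15 and 60 min in galactose, with spp1 deletion in orange and wild type in green and 1 library per point. GAL1 and GAL3 are higher at 60 than at 15 min in both strains, PGM2 and HXT4 are lower at 60 than at 15 min, and HXT1 and HXT3 are at their lowest at 60 min.

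Hexose transporter genes moved in both directions. Of 6 measured transporters and sensors, 4 rose and 2 fell, and 13 listed transporters were not analysed here. HXT1, a low-affinity transporter used in high glucose, was at 11.5 CPM in spp1 deletion and 3.86 CPM in wild type at 60 min, against 376 and 391 CPM in glucose (log2 change -5.71 ± 0.26, edgeR adjusted p = 6.00e-11). HXT3, also of low affinity, was at 27.9 and 7.73 CPM at 60 min, against 926 and 511 CPM in glucose (-5.40 ± 0.24, edgeR adjusted p = 6.24e-11). Both genes were at least an order of magnitude lower at 60 min in each strain. The fall of HXT3 came late: it had changed by -0.75 at 15 min and was a further -4.65 lower at 60 than at 15 min (edgeR adjusted p = 1.92e-08) and the lowest value of that contrast under the naming rule. HXT4, a high-affinity transporter, was at 40.2 and 53.5 CPM, against 12.7 and 8.57 CPM (2.12 ± 0.25, edgeR adjusted p = 1.62e-06), and was lower at 60 than at 15 min by -2.81. HXT2, also of high affinity, was at 598 and 392 CPM, against 237 and 124 CPM (1.49 ± 0.18, edgeR adjusted p = 1.99e-06). The glucose sensors SNF3 and RGT2 rose by 1.59 and 0.92.

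Of 16 measured genes of glucose signalling, 9 rose and 4 fell, with a median of 0.38. The number that rose was 5 without the spp1 deletion glucose library and 5 with DESeq2. The repressor genes moved apart. MIG1, the main glucose repressor, was at 642 CPM in spp1 deletion and 682 CPM in wild type at 60 min, against 120 and 111 CPM in glucose (log2 change 2.52 ± 0.17, edgeR adjusted p = 2.43e-09). MIG2 and MIG3, its relatives, fell by -1.52 and -3.37. STD1, the paralog of MTH1, fell by -2.39 while MTH1 rose. SNF1, the kinase that relieves repression, was not called, at 0.0032 (edgeR adjusted p = 0.988).

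Genes repressed by glucose were largely higher: 12 of 13 measured members rose and none fell, with a median of 3.24 and 11 at least 2-fold. HXK1, a hexokinase, was at 3464 CPM in spp1 deletion and 3579 CPM in wild type at 60 min, against 35.8 and 24.2 CPM in glucose (log2 change 6.87 ± 0.31, edgeR adjusted p = 6.24e-11). ALD4, the mitochondrial aldehyde dehydrogenase, was at 2504 and 2213 CPM, against 29.4 and 33.5 CPM (6.23 ± 0.26, edgeR adjusted p = 3.69e-11). SUC2, the invertase, rose by 4.35, and ATO2, an ammonium and acetate transporter, by 6.46. Each of these was higher in both 60 min libraries than in either glucose library. Genes of gluconeogenesis and the glyoxylate cycle rose less: FBP1 (fructose-1,6-bisphosphatase) by 3.28, MLS1 (malate synthase) by 1.85 and ICL1 (isocitrate lyase) by 1.48. MDH2, cytosolic malate dehydrogenase, was not called at 0.29 (edgeR adjusted p = 0.157), though it passed without the spp1 deletion 60 min library at 0.47 (0.0217). ADH2, the glucose-repressed alcohol dehydrogenase, rose by 2.99 and was 1 of 3 members higher at 60 than at 15 min, by 2.55 (edgeR adjusted p = 1.54e-07).

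Genes of the general stress programme included the gene with the highest change of all. Of 22 measured members, 21 rose and none fell, with a median of 3.77. HSP12, a small membrane-associated stress protein, was at 5406 CPM in spp1 deletion and 3399 CPM in wild type at 60 min, against 6.62 and 5.84 CPM in glucose. The groups did not overlap, and the change was 9.44 ± 0.38 (edgeR adjusted p = 2.92e-11), with ratios of 817 in spp1 deletion (exact 95% counting interval 561 to 1241) and 582 in wild type (352 to 1040). DDR2, a stress-induced gene of unclear role, was at 2011 and 1686 CPM, against 9.8 and 10.1 CPM (7.53 ± 0.28, edgeR adjusted p = 2.14e-11). TMA10, a ribosome-associated protein, was at 3596 and 2774 CPM, against 29.4 and 8.18 CPM (7.42 ± 0.36, edgeR adjusted p = 1.36e-10). The exception was SSA3, an inducible Hsp70 gene, at 0.015 (edgeR adjusted p = 0.967). The list was below its level at 15 min: 16 of 22 members were lower at 60 than at 15 min and none higher, with medians of 3.77 at 60 min and 4.84 at 15 min. It took 2.25% of the counts in spp1 deletion and 1.75% in wild type at 60 min, against 0.0839% and 0.0843% in glucose.

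Storage carbohydrate genes rose. Of 11 glycogen genes, 9 rose and 1 fell, with a median of 3.81, and all 7 trehalose genes rose, with a median of 2.11. GAC1, which targets a phosphatase to glycogen synthase, was at 194 CPM in spp1 deletion and 206 CPM in wild type at 60 min, against 1.23 and 2.34 CPM in glucose (log2 change 6.85 ± 0.23, edgeR adjusted p = 2.08e-11). GLC3, the branching enzyme, was at 891 and 808 CPM, against 15.4 and 8.18 CPM (6.13 ± 0.26, edgeR adjusted p = 4.59e-11). Genes for synthesis and breakdown rose together, with GSY1 (glycogen synthase) at 5.37 and GPH1 (glycogen phosphorylase) at 5.84. GLG1, a glycogenin, fell by -0.72, and UGP1 was not called at 0.62 (edgeR adjusted p = 0.0811). Both genes lie in the chromosome XI region called uncertain above. Without that region the median of the glycogen list was 5.19. In the trehalose list, TSL1 and TPS2, both of the synthase complex, rose by 4.64 and 2.89, and ATH1, the acid trehalase, by 4.62. At 60 min, 8 of 11 glycogen genes and 6 of 7 trehalose genes were lower than at 15 min, and none was higher.

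Respiratory genes rose as a group. All 26 measured genes of the respiratory chain (complexes II to IV, the NADH dehydrogenases and cytochrome c) and all 13 ATP synthase genes rose at least 2-fold, with medians of 2.57 and 2.03. NDE2, an external NADH dehydrogenase, was at 238 CPM in spp1 deletion and 176 CPM in wild type at 60 min, against 11 and 8.18 CPM in glucose (log2 change 4.39 ± 0.19, edgeR adjusted p = 5.34e-11). SDH1, the flavoprotein of succinate dehydrogenase, was at 496 and 316 CPM, against 22.5 and 17.5 CPM (4.32 ± 0.21, edgeR adjusted p = 1.44e-10). QCR10, of the cytochrome bc1 complex, rose by 3.59. The ATP synthase genes were close to each other, from 1.58 to 2.29, and none of the 13 differed between 60 and 15 min by the test. The respiratory chain genes took 2% of the counts in spp1 deletion and 1.77% in wild type at 60 min, against 0.289% and 0.35% in glucose.

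Of 18 genes of the tricarboxylic acid cycle, 17 rose and none fell, with a median of 1.77; its 4 succinate dehydrogenase genes are also in the respiratory list. CIT3, a citrate and methylcitrate synthase, was at 263 CPM in spp1 deletion and 113 CPM in wild type at 60 min, against 10.3 and 5.84 CPM in glucose (log2 change 4.50 ± 0.23, edgeR adjusted p = 1.79e-10). CIT1, the main mitochondrial citrate synthase, rose by 3.02. IDH1, of isocitrate dehydrogenase, was not called at 0.17 (edgeR adjusted p = 0.418), though it passed without the wild-type 60 min library at 0.50 (0.0117). HAP4, the activating subunit of the respiratory gene regulator, was at 282 and 311 CPM, against 56.4 and 83 CPM (2.11 ± 0.16, edgeR adjusted p = 8.80e-09). HAP5 rose by 0.77, while HAP2 and HAP3, at 0.48 and -0.36, lost their calls with DESeq2 (adjusted p = 0.0666 and 0.23) and without the wild-type glucose library, and HAP3 also without any other of the 4 libraries. Mitochondrial ribosome genes shifted little: 34 of 66 rose and 1 fell, with a median of 0.34, and the number that rose was 20 without the spp1 deletion glucose library and 20 with DESeq2. MRP8 and MRP20 led that list at 1.74 and 1.33.

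Core glycolysis, transcribed at high levels throughout, did not move as a group. Of 14 genes, 3 rose and 5 fell, with a median of -0.45. The number that fell was 9 without the wild-type 60 min library and 8 with DESeq2, and 3 without the spp1 deletion glucose library, without the spp1 deletion 60 min library, or with library totals. The 3 that rose were TDH1 by 3.79, PYK2 by 3.19 and ENO1 by 2.15, isoforms of glyceraldehyde-3-phosphate dehydrogenase, pyruvate kinase and enolase. ENO2, the enolase used in glucose, was at 1178 CPM in spp1 deletion and 1876 CPM in wild type at 60 min, against 3816 and 3202 CPM in glucose (log2 change -1.22 ± 0.25, edgeR adjusted p = 5.45e-04). PGK1, phosphoglycerate kinase, was at 3152 and 4842 CPM, against 4040 and 3908 CPM, with overlapping groups (-0.013, edgeR adjusted p = 0.969). The list took 2.27% of the counts in spp1 deletion and 3.14% in wild type at 60 min, against 3.52% and 3.19% in glucose.

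Genes that branch from glycolysis were mixed. Of 12 fermentation genes, 4 rose and 3 fell, beside 32.3% and 33.9% of all genes tested. PDC1, the main pyruvate decarboxylase, fell by -1.23 (edgeR adjusted p = 6.83e-04), and ADH1, the main fermentative alcohol dehydrogenase, was not called at -0.17 (edgeR adjusted p = 0.551). BDH2, a putative butanediol dehydrogenase, rose by 5.87. Of 9 pentose phosphate genes, 4 rose and 5 fell: SOL4 rose by 6.02 and GND2 by 3.28, both in the oxidative branch, and ZWF1, its first enzyme, by 1.74. TAL1 was also called higher, but that call was fragile. It was lost with the 4 libraries of the comparison alone (at 0.36), with DESeq2 (at 0.35), without the genotype term and without any single library. RKI1, ribose-5-phosphate isomerase, fell by -3.34 (edgeR adjusted p = 1.29e-10). Of 9 glycerol genes, 6 rose and 1 fell, with GUT2 and GUT1, which use glycerol, at 3.76 and 2.76, and GPD1, which makes it, at 2.92.

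Paralogs, gene copies that often serve 1 reaction, were described in pairs chosen with their values known, so the counts hold for these pairs alone. Among 24 pairs, 15 had 1 member called higher and the other lower, 4 had both higher, none had both lower, and 5 had a member that was not called. Some calls in the 15 pairs were fragile. That of TDH3, at -0.68, was lost with the 4 libraries of the comparison alone and with library totals. It was also lost when any single library was left out, except the wild-type 60 min library. TDH3 was at -0.41 without the spp1 deletion glucose library and at -0.35 without the spp1 deletion 60 min library. That of HYP2 was lost without either glucose library. LEU4, at 0.56, was at 0.45 without the spp1 deletion glucose library and at 0.29 without the spp1 deletion 60 min library. The widest difference was between the mitochondrial aldehyde dehydrogenases, with ALD4 at 6.23 and ALD5 at -1.54. ALD5 was at 199 CPM in spp1 deletion and 234 CPM in wild type at 60 min, against 682 and 577 CPM in glucose. HXK1 rose by 6.87 while HXK2, the hexokinase used in glucose, was not called at -0.42 (edgeR adjusted p = 0.0945), though it passed without the wild-type 60 min library at -0.84 (3.68e-05). GPP2 and GPP1, the glycerol phosphatases, were at 1.78 and -1.95. MPC3, a pyruvate carrier subunit, was at 2097 and 1493 CPM, against 25.7 and 16.4 CPM (6.41 ± 0.26, edgeR adjusted p = 2.92e-11). MPC2, the alternative subunit, was not called at -0.31 (edgeR adjusted p = 0.153) but passed without the spp1 deletion 60 min library at -0.61. BAT2 and BAT1, the cytosolic and mitochondrial branched-chain aminotransferases, were at 2.13 and -1.46, and SSA1 and SSA2, constitutive Hsp70 genes, at 1.85 and -2.46. Reads shared by close copies may be split between them, and TIF1 and TIF2, HYP2 and ANB1, and SSA1 and SSA2 are uncertain on that account.

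**Figure D3:**
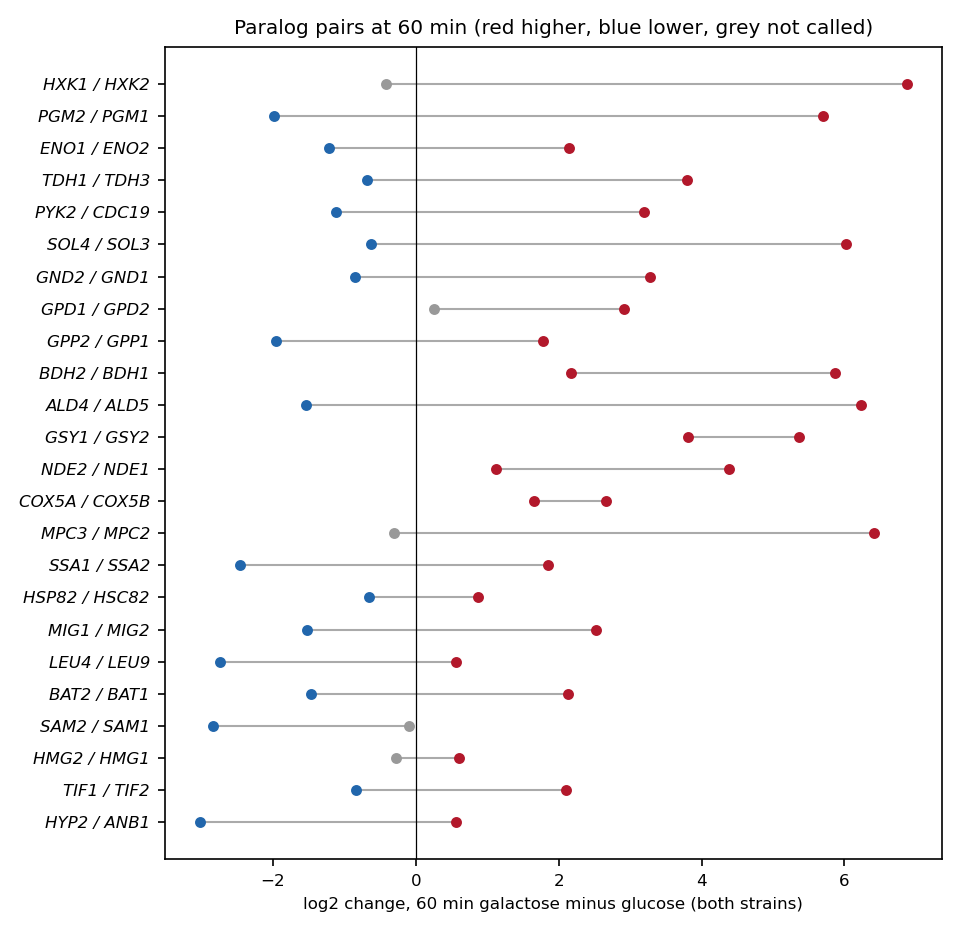
Log2 change from glucose to 60 min for the members of 24 paralog pairs, joined by a line, with red for higher, blue for lower and grey for not called. In 15 pairs a red and a blue point are joined, with ALD4 at 6.23 and ALD5 at -1.54 the farthest apart.

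Genes of ribosome production fell and had partly returned. Of 136 cytosolic ribosomal protein genes, 135 fell and none rose, with a median of -1.68. The exception was RPL15B, at 102 CPM in spp1 deletion and 76.7 CPM in wild type at 60 min, against 91.4 and 72.5 CPM in glucose (log2 change 0.12 ± 0.15, edgeR adjusted p = 0.488). The direct contrast called 93 of the 136 higher at 60 than at 15 min and 1 lower, where the medians against glucose were -1.68 at 60 min and -2.52 at 15 min. The gene lower at 60 than at 15 min was RPL9A, which had the lowest change of the list, -2.85, against -1.68 at 15 min. These genes took 15.9% of the counts in glucose, 3% at 15 min and 4.75% at 60 min in spp1 deletion, and 16.6%, 3.11% and 6.28% in wild type. Their median change at 60 min was -1.87 in spp1 deletion and -1.51 in wild type, a difference with 1 library per group and no test.

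Assembly factors fell further than the proteins they assemble. All 48 genes of the small subunit processome fell and 59 of 60 of large subunit assembly, with medians of -2.86 and -2.85. NSR1, nucleolin, was at 32.8 CPM in spp1 deletion and 45.7 CPM in wild type at 60 min, against 1178 and 1082 CPM in glucose (log2 change -4.83 ± 0.20, edgeR adjusted p = 3.69e-11). DBP2, a helicase in ribosome and mRNA production, was at 9.85 and 11 CPM, against 1060 and 963 CPM (-6.58 ± 0.24, edgeR adjusted p = 2.14e-11). Both were low in each 60 min library. At 15 min the medians against glucose were -4.69 for the small subunit and -4.56 for the large, and 43 of 48 and 52 of 60 genes were higher at 60 than at 15 min, with none lower. DBP2 was not called between the times, at -0.67 (edgeR adjusted p = 0.153). RSA1 was the large-subunit gene not called, at -0.35 (edgeR adjusted p = 0.0543).

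**Figure D4:**
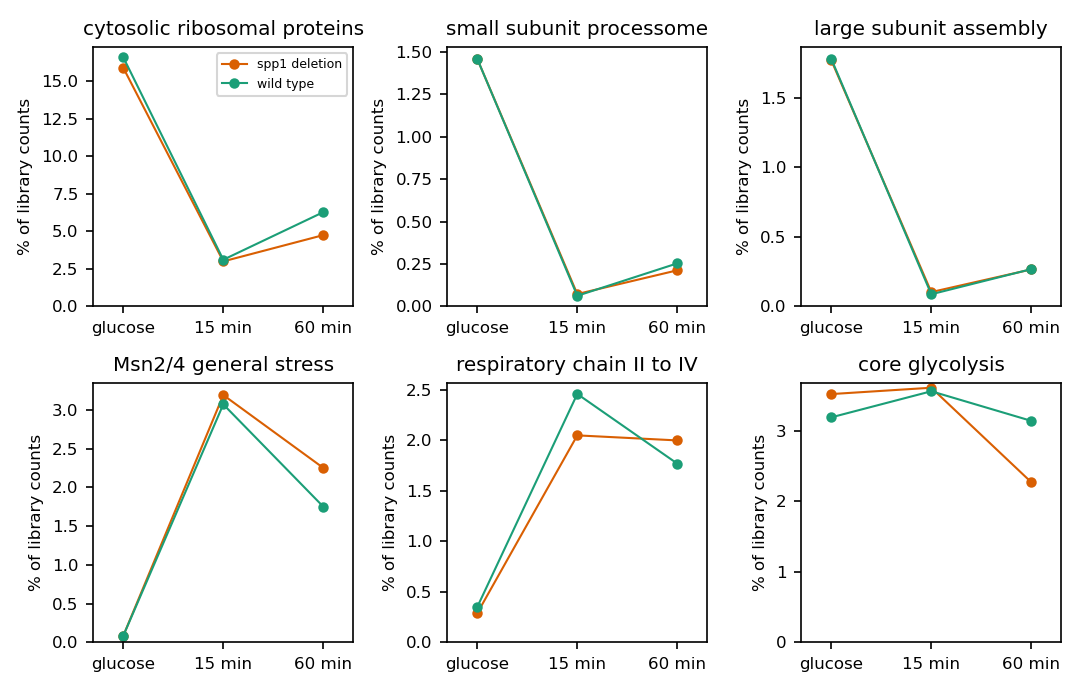
Share of each library's counts taken by 6 gene groups in glucose and after 15 and 60 min in galactose, with spp1 deletion in orange and wild type in green. Ribosomal protein genes take 15.9% and 16.6% in glucose, 3% and 3.11% at 15 min and 4.75% and 6.28% at 60 min, while stress genes are highest at 15 min.

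Genes of RNA polymerase I, which transcribes ribosomal DNA, were also lower. Of 8 genes, 7 fell, with a median of -2.73, and all 7 were higher at 60 than at 15 min. RPA135, its second largest subunit, was at 50.1 CPM in spp1 deletion and 52.8 CPM in wild type at 60 min, against 778 and 730 CPM in glucose (log2 change -3.86 ± 0.17, edgeR adjusted p = 5.28e-11). RRN3, its initiation factor, was not called at -0.019 (edgeR adjusted p = 0.938). Of 10 RNA polymerase III genes, 9 fell, with a median of -1.92, and the gene that rose was MAF1, its repressor, at 0.93 (edgeR adjusted p = 1.66e-05). Of 14 genes of RNA polymerase II and subunits it shares, 9 fell and none rose, with a median of -0.73. The lowest were RPC19 at -2.06 and RPC40 at -2.04, which the list holds although they belong to polymerases I and III and not to II. Of the 12 without them, 7 fell, with a median of -0.46. RPO21, the largest subunit of RNA polymerase II, was not called at -0.18 and RPB3, the tagged subunit, at -0.20.

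Regulators of these genes went both ways, with 3 of 9 rising and 4 falling, beside 32.3% and 33.9% of all genes tested. The number that fell was 2 with DESeq2. TOD6, a repressor of ribosome assembly genes, was at 7.39 CPM in spp1 deletion and 5.8 CPM in wild type at 60 min, against 227 and 223 CPM in glucose (log2 change -5.09 ± 0.23, edgeR adjusted p = 6.24e-11). IFH1, the coactivator of ribosomal protein genes, fell by -1.75, and CRF1, its corepressor counterpart, rose by 2.41. DOT6, also in the list, rose by 0.41 (edgeR adjusted p = 0.0124). Its call was lost with DESeq2 (adjusted p = 0.096) and without the wild-type 60 min or the spp1 deletion glucose library. Of 35 translation factor genes, 30 fell and 3 rose, with a median of -1.07. TEF1 and TEF2, near-identical genes for elongation factor 1A, fell by -2.50 and -2.18, and both were lower at 60 than at 15 min, by -1.28 and -1.04. YEF3, elongation factor 3, fell by -2.48. Of the 3 that rose, TIF1 lies in the uncertain chromosome XI region, and the calls of HYP2 and EFB1 were lost without either glucose library. That of EFB1 was also lost with the 4 libraries of the comparison alone (edgeR adjusted p = 0.359) and without either 15 min library. It was lost too without the genotype term and without the uncertain chromosome XI region. Of 18 tRNA synthetase genes, 17 fell, with a median of -1.37, led by KRS1 at -2.52, and GUS1 was not called at -0.23 (edgeR adjusted p = 0.186).

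Genes of nucleotide and amino acid synthesis were largely lower. Of 16 purine and GTP genes, 12 fell and 2 rose, with a median of -1.55. None of these rose without the wild-type glucose library and 1 without either 60 min or glucose library of spp1 deletion. Genes on the route to GTP led: IMD2 and IMD4 (IMP dehydrogenases) fell by -4.80 and -4.04, and GUA1 (GMP synthase) was at 26.3 CPM in spp1 deletion and 38 CPM in wild type at 60 min, against 777 and 731 CPM in glucose (log2 change -4.53 ± 0.19, edgeR adjusted p = 3.43e-11). AAH1, adenine deaminase, had the lowest change of all genes, with 3 counts in spp1 deletion and 2 in wild type at 60 min, against 1054 and 804 in glucose. Its fitted change was -7.27 ± 0.28 (edgeR adjusted p = 2.87e-11), and the ratio of glucose over 60 min was 105 in spp1 deletion (exact 95% counting interval 35.8 to 509) and 243 in wild type (67.1 to 2010). It was lower at 60 than at 15 min by -2.50 (edgeR adjusted p = 0.00238). URA7, CTP synthase, fell by -4.66. Of 49 amino acid genes, 32 fell and 3 rose, with a median of -0.64: LEU9 fell by -2.74, HIS6 by -2.72 and CPA1 by -2.09, while BAT2 rose by 2.13. CPA1, of arginine synthesis, was at -0.19 at 15 min and -1.90 lower at 60 than at 15 min (edgeR adjusted p = 2.07e-06).

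Sulfur genes were divided, with 9 of 19 rising and 4 falling, and 7 fell without the wild-type 60 min library. MET28, a transcription factor of the pathway, rose by 2.73, and MMP1, an S-methylmethionine permease, by 2.13. SAM1, an S-adenosylmethionine synthetase, was at 53.3 CPM in spp1 deletion and 107 CPM in wild type at 60 min, against 513 and 623 CPM in glucose (log2 change -2.83 ± 0.20, edgeR adjusted p = 6.92e-09), while its paralog SAM2 was not called at -0.093. SAM2 was at -0.62 without the wild-type glucose library and at -0.75 without the wild-type 60 min library. Its sign was the opposite without the spp1 deletion glucose library, at 0.44, and without the spp1 deletion 60 min library, at 0.53. The median of the list was 0.083, below 0 without the wild-type 60 min library (-0.23).

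Phosphate and iron genes differed from the earlier time. Of 20 phosphate genes, 7 rose and 4 fell at 60 min, 11 rose without the spp1 deletion 60 min library, and 14 were higher at 60 than at 15 min with 1 lower. PHM6, a phosphate-regulated gene of unknown role, was at 91.1 CPM in spp1 deletion and 122 CPM in wild type at 60 min, against 471 and 340 CPM in glucose (log2 change -1.90 ± 0.17). It had been at -6.05 at 15 min and was 4.16 higher at 60 min (edgeR adjusted p = 3.52e-07). PHO84, the main phosphate transporter, was not called at 0.089 (edgeR adjusted p = 0.733) and was 3.36 higher than at 15 min (edgeR adjusted p = 2.21e-07). Its levels of 1752 and 2143 CPM at 60 min overlapped those of 2159 and 1573 CPM in glucose. Of 26 iron genes, 5 rose and 4 fell, and 13 were lower at 60 than at 15 min with none higher. The number of iron genes that fell was 7 without the spp1 deletion 15 min library and 2 without the spp1 deletion 60 min library. FIT3 and FIT2, cell wall mannoproteins that retain iron, led those that rose at 3.36 and 2.33, while FRE4 and AFT2 fell by -1.15 and -1.13.

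Lipid genes were lower or mixed. Of 12 fatty acid genes, 8 fell and 2 rose, with a median of -0.69. ELO3, an elongase, fell by -1.69, OLE1, the desaturase, by -1.67 and FAS1, a fatty acid synthase subunit, by -1.19, while ELO1, the elongase of shorter chains, rose by 1.43. The ELO1 call was lost without the genotype term (edgeR adjusted p = 0.121). Of 23 ergosterol genes, 10 fell and 3 rose, and the median was -0.59 in spp1 deletion and 0.080 in wild type. The number that fell was 1 without the genotype term, 5 without the spp1 deletion glucose library, 4 without the spp1 deletion 60 min library and 6 with DESeq2, and the number that rose was 1 without either wild-type library. ERG25, a C-4 methyl sterol oxidase, was at 852 CPM in spp1 deletion and 253 CPM in wild type at 60 min, against 2074 and 451 CPM in glucose (log2 change -1.06 ± 0.20, edgeR adjusted p = 2.14e-04, and 0.236 without the genotype term). The level of ERG25 differed more between strains than between conditions. Other lists also had medians of opposite sign in spp1 deletion and wild type. These were -0.21 and 0.55 for sulfur genes, -0.13 and 0.45 for phosphate genes, -0.20 and 0.32 for fermentation genes and -0.021 and 0.14 for iron genes. The marker lists of a, alpha and meiotic cells also had opposite signs, at -0.29 and 0.21, 0.11 and -0.35, and 0.19 and -0.60. With 1 library per group, no such difference was tested. Of 9 genes of peroxisomal fatty acid oxidation, 7 rose, with ECI1 (an enoyl-CoA isomerase) at 2.87, FAA2 (an acyl-CoA synthetase whose gene shares its span with another gene) at 2.76 and MDH3 (peroxisomal malate dehydrogenase) at 2.06.

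Autophagy genes were largely higher. Of 36 autophagy genes, 27 rose and 2 fell, with a median of 1.02. ATG39, a receptor for autophagy of the nuclear envelope, was at 211 CPM in spp1 deletion and 176 CPM in wild type at 60 min, against 6.62 and 8.18 CPM in glucose (log2 change 4.73 ± 0.19, edgeR adjusted p = 2.96e-11). ATG34, a cargo receptor, rose by 3.99, and ATG5, of the conjugation machinery, fell by -1.60. Of 33 proteasome genes, 14 rose, 19 were not called and none fell, all under 2-fold, with a median of 0.34 and PRE2 the highest at 0.82. The number of proteasome genes that rose was 22 with library totals, 6 without either glucose library and 9 with DESeq2.

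Chaperone genes of the Hsf1 list were divided, with 10 of 23 rising and 7 falling, beside 32.3% and 33.9% of all genes tested. Of the 23, 13 were lower at 60 than at 15 min, with none higher. HSP78, a mitochondrial disaggregase, rose by 2.03 and HSP104, the cytosolic one, by 1.71. HSP104 was lower at 60 than at 15 min by -1.29 (edgeR adjusted p = 1.44e-05). SSA2 was at 183 CPM in spp1 deletion and 323 CPM in wild type at 60 min, against 1420 and 1385 CPM in glucose (log2 change -2.46 ± 0.27, edgeR adjusted p = 7.82e-07), and YDJ1, its J-protein partner, fell by -2.35. Of 19 oxidative defence genes, 14 rose and 1 fell, with a median of 1.31, and 5 of them also stand in the stress list. TSA2, a peroxiredoxin, was at 304 and 68.3 CPM, against 10.3 and 6.23 CPM (4.47 ± 0.24, edgeR adjusted p = 2.66e-10). It was higher in both strains, with the spp1 deletion the highest of the 4. GPX2, a peroxidase, fell by -1.50.

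Genes of G1 and Start had medians nearer 0 at 60 than at 15 min. Of 12 genes of G1 and Start, 5 rose and 3 fell, with a median of 0.13 at 60 min and -1.11 at 15 min, and 7 were higher at 60 than at 15 min with none lower. The number that rose was 2 without the spp1 deletion glucose library and 3 without the spp1 deletion 60 min library, and the number that fell was 1 without the wild-type glucose library and 1 with DESeq2. CLN2, a G1 cyclin, was at 91.9 CPM in spp1 deletion and 100 CPM in wild type at 60 min, against 151 and 245 CPM in glucose (log2 change -1.02 ± 0.16). It was 2.95 higher than at 15 min (edgeR adjusted p = 6.72e-07). PCL1, a G1 cyclin for Pho85, was at 478 and 487 CPM, against 247 and 278 CPM (0.88 ± 0.17), and was 3.11 higher than at 15 min (edgeR adjusted p = 1.01e-07). Of 12 mitotic genes, 7 fell and 2 rose, but 1 fell with DESeq2, 1 without the spp1 deletion glucose library, 2 without the spp1 deletion 60 min library, 3 without the wild-type glucose library, 4 without the wild-type 60 min library and 3 without the genotype term. Of 9 replication licensing genes, 3 fell and none rose, beside 33.9% lower and 32.3% higher over all genes tested. Their median was -0.33, and 3 were higher at 60 than at 15 min with none lower.

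Histone genes went the other way in time. Of 10 genes, 5 fell and 1 rose at 60 min, while 8 had risen at 15 min (background 37.1% higher and 38.1% lower at that time), and 8 were lower at 60 than at 15 min with none higher. HTB2, a histone H2B gene, was at 197 CPM in spp1 deletion and 180 CPM in wild type at 60 min, against 542 and 605 CPM in glucose (log2 change -1.60 ± 0.17, edgeR adjusted p = 6.61e-07). HTA2, for H2A, fell by -1.55. The linker histone gene HHO1 was the one that rose, by 0.85. Of 7 genes of COMPASS, the complex to which Spp1 belongs, 3 fell and none rose, beside 33.9% lower and 32.3% higher over all genes tested. They were SET1, the methyltransferase, at -0.98, BRE2 at -0.86 and SPP1 itself, whose value rests on the wild type alone. The SPP1 call was lost with DESeq2, limma, library totals, thinned libraries or no genotype term, and without either glucose library or the wild-type 60 min library. Of 13 genes for H2B ubiquitination, the Paf1 complex and other histone methyl enzymes, 3 rose and 6 fell, with UBP10, a deubiquitinase, at -1.16 and LGE1, of the ubiquitination machinery, at 0.71.

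**Figure D5:**
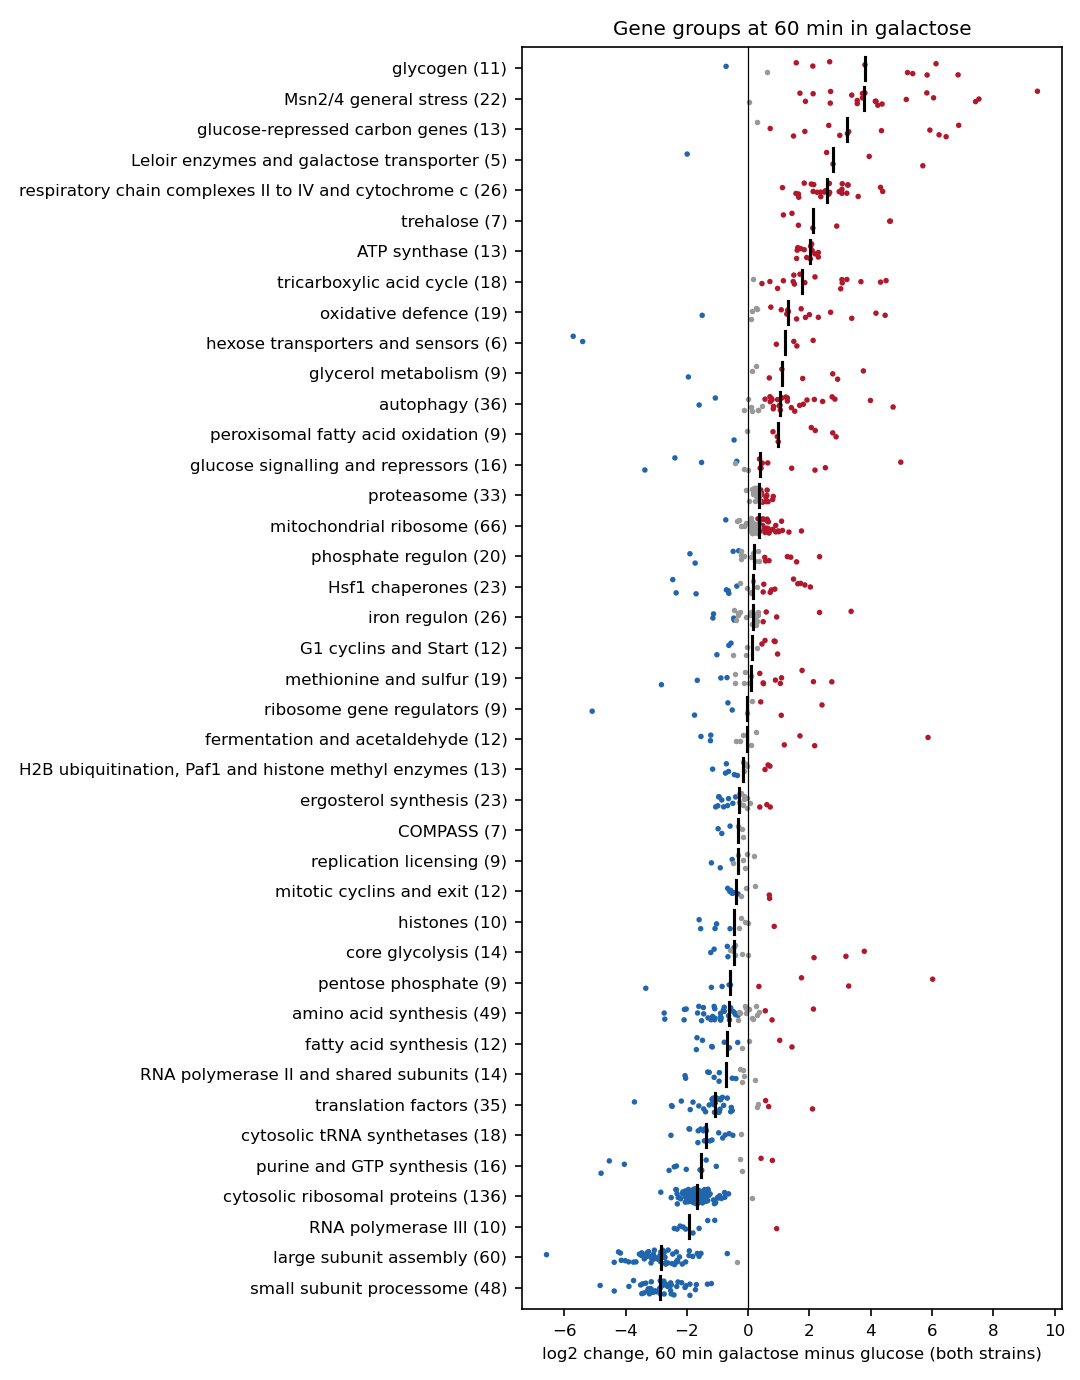
Log2 change from glucose to 60 min, fitted over both strains, for the members of 41 gene groups, with the number of members tested in parentheses, the median as a black bar and points in red for higher, blue for lower and grey for not called. Glycogen, stress and glucose-repressed genes lie at the top with medians of 3.81, 3.77 and 3.24, and both groups of ribosome assembly genes at the bottom with medians of -2.85 and -2.86.

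The 12 highest changes, by the naming rule, were HSP12, DDR2, TMA10, HXK1, GAC1, SPG4, LEE1, YMR206W, ATO2, MPC3, ALD4 and GLC3. LEE1, a zinc-finger protein of unknown role, was at 321 CPM in spp1 deletion and 350 CPM in wild type at 60 min, against 4.66 and 2.34 CPM in glucose (log2 change 6.48 ± 0.22, edgeR adjusted p = 2.08e-11). It was also higher at 60 than at 15 min, by 1.08 (edgeR adjusted p = 3.42e-05). SPG4, known for survival in stationary phase, was at 822 and 299 CPM, against 4.9 and 4.68 CPM (6.83 ± 0.32, edgeR adjusted p = 7.88e-11). The 12 lowest were AAH1, DBP2, HXT1, HXT3, GFD2, TOD6, NSR1, RMT2, IMD2, RFU1, SYO1 and URA7. Several of them act in ribosome production, such as SYO1, a carrier of ribosomal proteins L5 and L11, at -4.68, and RMT2, a methyltransferase of ribosomal protein L12, at -4.81.

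Between 60 and 15 min the highest differences were AIR1 at 4.57, NRP1 at 4.27, TOS6 at 4.20, SRO9 at 4.18, RCL1 at 4.18 and YOX1 at 4.16. AIR1, of the TRAMP complex for nuclear RNA decay, was at 46.8 CPM in spp1 deletion and 39.9 CPM in wild type at 60 min, against 290 and 255 CPM in glucose, so that it was still -2.65 below glucose (edgeR adjusted p = 5.10e-10). RCL1, of ribosomal RNA processing, was also still lower, at -2.78. TOS6, a cell wall protein gene, was above glucose at 0.87. The lowest differences were HXT3 at -4.65, HSP30 at -4.20, MGA1 at -3.51, CIN5 at -3.34, BTN2 at -3.26 and RSB1 at -2.93. CIN5, a stress transcription factor, was at 22.2 and 32.2 CPM, against 22.3 and 29.2 CPM in glucose, with overlapping groups. It had been at 3.47 at 15 min and was not called at 60 min (0.13, edgeR adjusted p = 0.674), and BTN2, a protein sorting chaperone, was likewise not called (-0.27, edgeR adjusted p = 0.446), though it passed without the spp1 deletion glucose library at -0.92 (0.0029).

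The change at 60 min differed between strains by at least 2-fold for 125 genes, 87 with a higher change in spp1 deletion (1.68%) and 38 with a lower one (0.733%), with 1 library per group and no test. The middle of the distribution was narrow, with quartiles of -0.24 and 0.21. Among genes with a mean count of 30 or more, YDR042C, of unknown role, had the highest difference, 3.29. It was at 10.7 CPM in spp1 deletion and 1.29 CPM in wild type at 60 min, against 43.4 and 83.4 CPM in glucose, and the wild-type value at 60 min rests on 2 counts (glucose over 60 min 64.7, exact 95% counting interval 17.7 to 538). GFD2, thought to act in mRNA export, followed at 2.27, with 10.7 CPM in spp1 deletion and 1.29 CPM in wild type at 60 min, against 228 and 214 CPM in glucose, and also 2 counts in wild type at 60 min. PDR12, a weak-acid exporter, was at 23.8 and 17.4 CPM at 60 min, against 27.2 and 85.3 CPM in glucose, a difference of 2.05. In PDR12 the strains were far apart in glucose and close at 60 min.

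The lowest difference was that of PHO89, a sodium-phosphate cotransporter, at -2.19. PHO89 was at 659 CPM in spp1 deletion and 629 CPM in wild type at 60 min, against 516 and 108 CPM in glucose, so the strains were alike at 60 min and apart in glucose. Its rise over both strains, 1.39, was not called without the wild-type glucose library (0.58, edgeR adjusted p = 0.0821), nor with DESeq2, limma or no genotype term. YSR3, a sphingolipid phosphatase, followed at -2.07, with 12.3 and 3.86 CPM, against 118 and 9.35 CPM, and lies in the uncertain chromosome XI region. AMS1, vacuolar mannosidase, rose in both strains, with 210 and 164 CPM, against 30.4 and 6.62 CPM, a difference of -1.69.

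Gene length and position were compared as descriptions, with no test. The median length was 1089 bases for genes that rose, 1290 for genes that fell and 1310 for genes not called. Within 20 kb of the outermost annotated gene of a chromosome arm, 29 of 85 tested genes rose and 19 fell, against 32.3% and 33.9% of all genes. Changes of neighbouring genes correlated at 0.205 for 1294 divergent pairs, 0.105 for 2324 tandem pairs and 0.0411 for 1284 convergent pairs, as a description over genes of the same libraries.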

How the data were processed

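NET-seq libraries of log-phase yeast were used as whole-number read counts per gene, as the authors deposited them. Per the submitters' processing notes, Bowtie (no version given) and sacCer3 were used. Which tool counted reads, on which strand and with which annotation, is not given in the sources used here, so overlapping, antisense and near-identical genes are uncertain. Of 5219 identifiers, 5116 matched a reference table of names. Some items are withheld and not reported here, and gene lists leave them out.

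The counts were fitted with edgeR 4.0.16 (quasi-likelihood, TMM, R 4.3.3) over all 6 libraries, with genotype and condition as additive terms, on 5186 genes with a mean count of at least 10, at a Benjamini-Hochberg adjusted p of 0.05 over all of them. This left 2 residual degrees of freedom. Standard errors are the log2 change over the root of F. Genotype pairs the libraries because it names the same strain in each condition. Library totals ran from 1162190 to 4167249 counts, and intervals cover counting error only. Changes in single strains used log2 CPM with a prior count of 2. On simulated data the 60 min contrast recovered 58% of genes changed 1.5-fold and 92% changed 2-fold among 5186 genes, with 7 unchanged genes called. The simulation gave every gene the same spread (dispersion 0.00979), changed 50 genes at each fold and left the rest unchanged at 60 min. It cannot give the error rate of the real fit, where 66.2% of genes were called and the spread may differ by gene.

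The 48 gene lists came from general knowledge, and they and the members were chosen with earlier results of these data known. Named genes were the 12 highest and 12 lowest at 60 min and the 6 highest and 6 lowest against 15 min, among called genes whose change had 1 sign in each strain. To these were added the 5 highest and 5 lowest strain differences, all members of 3 galactose lists, and up to 4 members of each other list with the largest change, those nearest 0 and those called against its majority. Paralog pairs, members not called, and SUC2, FBP1, ICL1, MLS1, ADH2, PGK1, ADH1, CIT1, HXT2, RGT2, SNF1, HSP104, PHO84, FAS1, RPO21 and RPB3 were chosen after values were seen. Alternatives were other scalings, filters, libraries, thresholds, limma 3.58.1 and DESeq2 1.42.0. Figures used matplotlib 3.10.9.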

Additional observations from a re-analysis of the deposited data

Results flagged for a closer look

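In 17 of the genes chosen by the naming rule or after their values were seen, the changes measured in each strain between glucose and 60 min had opposite signs, as they did for 591 of the 5186 genes tested. The difference was not tested because each strain and condition has 1 library, and in many of these genes the change in 1 strain was close to 0. SAM2, an S-adenosylmethionine synthetase, changed by -0.81 in spp1 deletion and 0.61 in wild type, a difference of -1.42. Its ratio of 60 min over glucose was 0.57 in spp1 deletion (exact 95% counting interval 0.484 to 0.669) and 1.53 in wild type (1.31 to 1.79). ERG1, squalene epoxidase, changed by -1.42 in spp1 deletion and 0.10 in wild type, a difference of -1.52 on the log2 scale. The wild-type ratio was 1.07, with a counting interval of 0.984 to 1.17 that includes 1. ERG1 was at 743 CPM in spp1 deletion and 548 CPM in wild type at 60 min, against 1983 and 511 CPM in glucose. TIR3, a cell wall mannoprotein, changed by -1.59 and 0.12, a difference of -1.71, with 39.4 and 17.4 CPM at 60 min, against 121 and 16 CPM in glucose. In ERG1 and TIR3 the spp1 deletion glucose library stood above the other 3. BIO5, a transporter of a biotin precursor, changed by 0.022 in spp1 deletion and -1.92 in wild type, a difference of 1.94, with 22.2 and 7.09 CPM at 60 min, against 21.8 and 29.6 CPM in glucose. RSB1, a sphingoid base exporter, changed by 1.61 and -0.40, a difference of 2.02, with 23.8 and 29 CPM at 60 min, against 7.11 and 38.6 CPM in glucose. The other differences, spp1 deletion minus wild type, were below 2-fold, at 0.83 for BTN2, 0.79 for IME1, 0.71 for IDH1, 0.69 for MPC2, 0.54 for SAG1, 0.51 for RRN3, 0.39 for AFB1, 0.38 for SSA3, 0.25 for PCL10, -0.15 for CIN5, -0.42 for MFA2 and -0.59 for MFA1.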

How the results depend on the processing

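The count of genes called at 60 min against glucose was 3505 with the 4 libraries of the comparison alone, 3172 with no replicate block (the genotype term left out), 2774 with DESeq2, 3339 with limma, 3347 without the uncertain region on chromosome XI and 3293 with libraries thinned to 1162190 counts, the last 2 chosen after seeing the data. Leaving out 1 library at a time gave 2943 to 3497 calls (1424 to 1712 higher, 1513 to 1804 lower). At 2-fold it was 1727, with 812 higher and 915 lower. Between 60 and 15 min, lower calls were 547 with library totals and 514 with DESeq2, and 554 to 816 with 1 library left out. Strain differences of 2-fold fell to 64 with a prior count of 20. Library totals moved the median of all genes by 0.083. The cause of these differences was not tested. Genes that changed sign were not called at 60 min, except TIR3. With library totals, MFA1, MFA2 and RRN3 were at 0.050, 0.076 and 0.064. With no replicate block, MFA1 and MFA2 were at 0.035 and 0.028, and the block changed no other sign. Thinned, SSA3 and CIN5 were at -0.016 and -0.090. Leaving out 1 library at a time gave, on the log2 scale, values of SSA3 -0.28 to 0.27, MFA1 -0.40 to 0.28, SAM2 -0.75 to 0.53, PCL10 -0.26 to 0.070, BTN2 -0.92 to 0.41, TIR3 -1.60 to 0.055, SAG1 -0.53 to 0.21, IME1 -0.74 to 0.29, RRN3 -0.23 to 0.19, AFB1 -0.36 to 0.20, MFA2 -0.31 to 0.26, IDH1 -0.18 to 0.50, BIO5 -2.04 to 0.0052, CIN5 -0.23 to 0.40 and RSB1 -0.32 to 1.57.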
